A study of Mus musculus with 8 samples.

Results

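Sirtuins are enzymes that use NAD+ to remove acetyl and other acyl groups from lysine residues, which ties their activity to the metabolic state of the cell. The mouse genome holds 7 sirtuin genes, Sirt1 to Sirt7, and the 7 rows of the deposited kidney expression table that carry these names, of 55401 genes in all, are described here. The proteins are divided by place and by reaction. SIRT1, SIRT6 and SIRT7 act mainly in the nucleus on histones and transcription factors, SIRT2 acts mainly in the cytosol, and SIRT3, SIRT4 and SIRT5 act in the mitochondrion. In the kidney SIRT1, SIRT3 and SIRT6 are best known, from other work, for roles in mitochondrial function, oxidative stress and podocyte or tubule injury.

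Kidney RNA was sequenced from 8 diabetic mice, with 1 library a mouse. Mice 1, 2, 3 and 5 of the rFGF4 group received a structurally modified, non-mitogenic recombinant human FGF4, and mice 2, 3, 4 and 5 of the model group received PBS and are called the vehicle group here. The sample labels name the model group db/db model, that is, obese mice without a working leptin receptor, and name only the treatment for the rFGF4 group. The paper describes the sequenced animals as mice made diabetic with streptozotocin, a toxin of the insulin-producing beta cells, and the values do not settle which model was used. All groups of the study were male, every mouse compared here was diabetic, and there was no library of a healthy kidney. In both models the paper injected the protein or PBS intraperitoneally every other day for 8 weeks. Its figure legend starts this treatment at the same age in both models. The schedule in its methods puts the start later for streptozotocin mice, so no age is given here. The question of the comparison was which transcripts respond to rFGF4 in the diabetic kidney. Sirtuins bear on it as partners of the energy sensor AMPK and as deacetylases of FOXO transcription factors. Of the 7 genes, the KEGG annotation of the table puts only Sirt1 in the AMPK and FoxO signaling pathways.

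Expression was given as FPKM, that is, fragments per length of transcript, scaled to the mapped fragments of the library. Levels of different genes can therefore be set side by side, but without read counts the depth behind a value is unknown. The summed FPKM of a library lay between 389407 and 552604. Two-sided tests used limma on log2(FPKM + 1), the scale of every fold change below, which understates changes of low genes. The libraries were of kidney: 6 proximal tubule markers summed to 366 to 1664 FPKM and 5 podocyte markers to 46.0 to 90.5 FPKM, while 5 adipocyte markers summed to 0.67 FPKM or less although a label speaks of adipose RNA. Of the variance of the 15150 tested genes, 54.4% lay on the first principal component, and rFGF4 mouse 1 and vehicle mouse 5 lay together at 1 end of it, at -64.6 and -60.1. In these libraries 4 of 4 macrophage markers were above the other 6 libraries, with a sum of 246 and 277 FPKM against 16.3 to 105 FPKM. Their mitochondrial transcripts, at 19.0% and 24.4% of all FPKM, were the smallest shares. In rFGF4 mouse 1, 6 of 6 proximal tubule markers were at their lowest. B and plasma cell markers were also above the other 6 libraries for 5 of 6 genes, with sums of 2814 and 23876 FPKM against 27.0 to 1461 FPKM, and 2 of 2 distal convoluted tubule markers were below. Sirtuin values without these libraries are given after the account of the single genes.

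Promoter sequences from RefSeq on GRCm38.p6, running from 250 bases before to 50 bases after a transcript start, were found for all 7 genes, 9 windows in all. Shown are a window each of Sirt3 and Sirt6, the genes that varied most between libraries, of Sirt5, which had the smallest p for treatment, and of Sirt1, the gene annotated to AMPK and FoxO signaling. Each is written 5′ to 3′ on the strand of its gene, and capitals mark matches, on either strand, to the motifs described next.
Sirt1, chr10:63338986-63339285, minus strand: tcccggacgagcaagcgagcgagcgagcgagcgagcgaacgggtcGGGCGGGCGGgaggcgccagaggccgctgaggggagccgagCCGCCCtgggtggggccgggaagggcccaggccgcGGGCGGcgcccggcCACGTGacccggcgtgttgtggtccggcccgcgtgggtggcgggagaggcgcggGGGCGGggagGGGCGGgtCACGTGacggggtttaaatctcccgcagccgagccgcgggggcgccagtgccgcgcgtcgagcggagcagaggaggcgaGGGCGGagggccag
Sirt3, chr7:140882260-140882559, minus strand: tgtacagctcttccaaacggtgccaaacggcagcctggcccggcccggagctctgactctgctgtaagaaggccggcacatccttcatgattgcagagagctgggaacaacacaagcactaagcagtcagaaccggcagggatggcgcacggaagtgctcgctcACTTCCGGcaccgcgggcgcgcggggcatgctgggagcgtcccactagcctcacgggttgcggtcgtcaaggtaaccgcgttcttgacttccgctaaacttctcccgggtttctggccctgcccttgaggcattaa
Sirt5, chr13:43365285-43365584, plus strand: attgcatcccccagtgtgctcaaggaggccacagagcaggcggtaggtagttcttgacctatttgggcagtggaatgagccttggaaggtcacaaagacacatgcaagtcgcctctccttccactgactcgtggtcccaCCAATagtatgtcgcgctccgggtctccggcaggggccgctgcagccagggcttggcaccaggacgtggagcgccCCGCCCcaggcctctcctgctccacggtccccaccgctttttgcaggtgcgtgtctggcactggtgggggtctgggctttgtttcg
Sirt6, chr10:81627517-81627816, minus strand: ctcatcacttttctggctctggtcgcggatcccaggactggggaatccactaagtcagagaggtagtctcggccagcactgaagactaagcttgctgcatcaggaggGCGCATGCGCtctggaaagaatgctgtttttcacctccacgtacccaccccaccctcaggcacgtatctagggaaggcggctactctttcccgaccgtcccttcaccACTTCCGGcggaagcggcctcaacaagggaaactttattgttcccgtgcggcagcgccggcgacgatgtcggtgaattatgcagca

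The motifs searched on both strands were the FoxO core GTAAACA, the cAMP response element TGACGTCA, the E-box CACGTG, the NRF1 core GCGCATGC, the NF-Y box CCAAT, the GC box GGGCGG and the ETS motif CCGGAAGT. The Sirt1 window above held 2 E-boxes, 115 and 43 bases before the start, and at least 1 E-box was found in 7.15% of the 32851 mouse promoters in the RefSeq table. It also held 7 GC boxes, of which those 205 and 201 bases before the start overlap, a motif found in 35.7% of promoters, and at 79.0% its GC content was above the promoter median of 52.7%. The Sirt3 window shown held 1 ETS motif, 86 bases before the start, and the Sirt6 window shown held 1 ETS motif 36 bases before it. Both genes have another window, not shown, without an ETS motif. That of Sirt3 held 4 GC boxes and 1 NF-Y box, and that of Sirt6 held 1 GC box. ETS motifs were found in 3.89% of promoters. The shown window of Sirt6 also held the NRF1 core on both strands, as overlapping matches 143 and 141 bases before the start. The core was found in 2.71% of promoters, the Sirt7 window among them. The Sirt5 window held 1 NF-Y box and 1 GC box, and NF-Y boxes were found in 37.4% of promoters. The Sirt4 window matched none of the motifs. In none of the 9 windows did the FoxO core, present in 3.65% of promoters, or the cAMP response element, present in 1.79%, match in these letters. A match is a string of letters and not evidence of binding.

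All 7 sirtuins were expressed in every kidney library, and on unscaled FPKM their summed level was similar throughout, between 34.8 and 41.5 FPKM. Dividing the libraries by a common median ratio would widen this range. The log2 factor was highest, 0.37, in rFGF4 mouse 1, which had the lowest sum. It was lowest, -0.14, in vehicle mouse 4, which had the highest sum. The sum was 37.4 ± 2.57 FPKM in the rFGF4 group and 37.9 ± 2.97 FPKM in the vehicle group (mean ± SD, n = 4 each). By their mean over the 8 libraries the genes ranked Sirt2, Sirt3, Sirt7, Sirt4, Sirt6, Sirt1 and Sirt5. Sirt2 held between 21.7% and 33.3% of the sirtuin FPKM of a library, and Sirt5 between 4.11% and 7.75%. The order was not the same in every mouse. Sirt2 was above Sirt3 in 7 of 8 libraries, Sirt3 above Sirt7 in 6, Sirt7 above Sirt4 in 7, Sirt4 above Sirt6 in 7 and Sirt6 above Sirt1 in 4. Among neighbours in this order, Sirt1 and Sirt5 alone kept their order in all 8 libraries.

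rFGF4 treatment was not followed by a detectable change of any sirtuin transcript. The study called genes by an unadjusted p under 0.05 together with a 1.5-fold rise or a fall to 0.67 of the vehicle level or less. This threshold was passed by 0 of the 7 genes, against 1.53% of all 15150 genes tested (1.09% higher and 0.442% lower), and an unadjusted p under 0.05 alone was also reached by 0 of 7, against 4.62%. The values of the groups overlapped for all 7 genes, whereas 3.33% of all tested genes had groups that did not overlap. With Benjamini-Hochberg adjustment over all tested genes, limma gave 0 genes of 15150 an adjusted p under 0.05 and 700 an unadjusted one. The adjusted p of the sirtuins lay between 0.918 and 0.995. Their median log2 fold change was 0.01, beside 0.09 for all tested genes, of which 67.1% had a positive difference. These directions depend on scaling. With a common median ratio, which sets the all-gene median close to 0 by construction, that median was -0.01. The genes past the threshold then numbered 93 higher and 83 lower, from 165 and 67. With mitochondrial genes left out of the total the median was 0.16, with 279 higher and 43 lower. The 95% intervals, given gene by gene below, were widest for Sirt3 and Sirt6, and changes within a gene's own interval were not resolved by 4 mice a group. For a single gene, an exact permutation test of 4 against 4 mice cannot give a p below 0.0286.

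**Figure D1:**
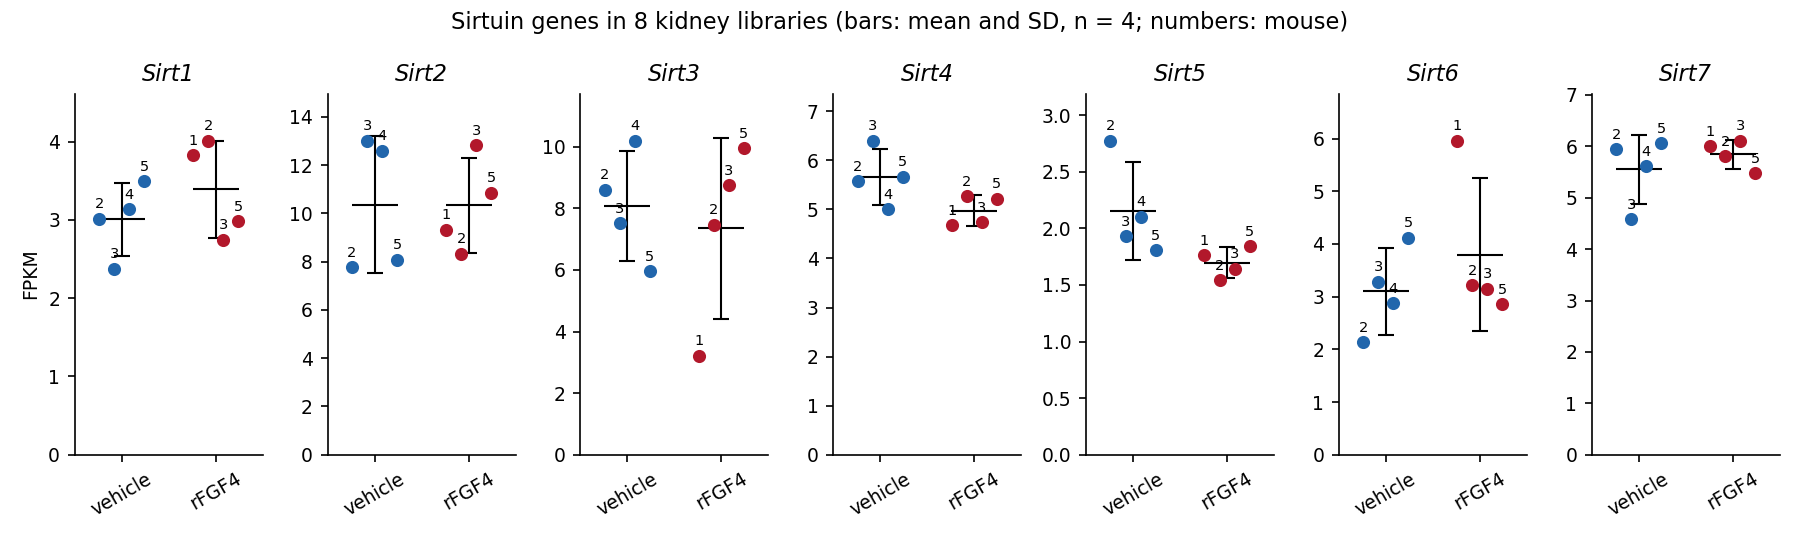
FPKM of the 7 sirtuin genes (vertical axes, each from 0) in the vehicle group (blue) and the rFGF4 group (red); points are libraries numbered by mouse, and bars are the mean and SD (n = 4). The groups overlap in all 7 panels, and rFGF4 mouse 1 is the lowest library for Sirt3, at 3.21 FPKM, and the highest for Sirt6, at 5.96 FPKM.

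Among the nuclear sirtuins, Sirt1, which deacetylates p53, PGC-1α and FOXO proteins, stood at 3.83, 4.01, 2.75 and 2.99 FPKM in rFGF4 mice 1, 2, 3 and 5. It stood at 3.01, 2.38, 3.14 and 3.50 FPKM in vehicle mice 2, 3, 4 and 5. The highest 2 values and the second lowest came from treated mice, so the groups interleaved. The log2 fold change was 0.13 ± 0.15 (SE; 95% interval -0.21 to 0.47; adjusted p = 0.930 with limma), and the exact permutation p was 0.371.

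Sirt6, which deacetylates histone H3 and takes part in DNA repair and in the repression of glycolytic genes, stood at 5.96, 3.21, 3.15 and 2.86 FPKM in the rFGF4 mice. The vehicle values were 2.13, 3.28, 2.88 and 4.12 FPKM. One treated mouse, number 1, lay well above the rest, and the other 3 treated mice fell within the vehicle range. For Sirt6 the log2 fold change was 0.20 ± 0.23 (SE; 95% interval -0.32 to 0.73; adjusted p = 0.926 with limma; exact permutation p = 0.543). Without rFGF4 mouse 1 it was 0.01. The coefficient of variation of Sirt6 over the 8 libraries, 33.5%, was the largest of the family.

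Sirt7, a nucleolar sirtuin linked to ribosomal RNA transcription, was the steadiest member, with a coefficient of variation of 8.82%. It stood at 6.01, 5.80, 6.11 and 5.47 FPKM in the rFGF4 mice and at 5.95, 4.59, 5.61 and 6.06 FPKM in the vehicle mice. All values but that of vehicle mouse 3 lay within 5.47 to 6.11 FPKM. Sirt7 had a log2 fold change of 0.07 ± 0.12 (SE; 95% interval -0.20 to 0.34; adjusted p = 0.951 with limma; exact permutation p = 0.571). Scaling the libraries to a common median ratio turned its sign, to -0.04.

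Sirt2, the mainly cytosolic sirtuin, which deacetylates α-tubulin, was measured at 9.32, 8.33, 12.8 and 10.9 FPKM in the rFGF4 mice. In the vehicle mice Sirt2 was measured at 7.77, 13.0, 12.6 and 8.07 FPKM. Each group held both high and low libraries, and the treated values lay inside the vehicle range. The means were 10.3 ± 1.96 and 10.4 ± 2.83 FPKM (SD, n = 4 each). The log2 fold change was 0.01 ± 0.21 (SE; 95% interval -0.46 to 0.49; adjusted p = 0.995 with limma; exact permutation p = 0.914), and its sign turned under the common median ratio, to -0.10.

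Of the mitochondrial sirtuins, Sirt3, the main mitochondrial deacetylase, whose targets include SOD2 and enzymes of fat oxidation, was the most variable on the log scale. Its residual SD exceeded that of 79.7% of all tested genes. Sirt3 stood at 3.21, 7.47, 8.75 and 9.96 FPKM in the rFGF4 mice and at 8.61, 7.52, 10.2 and 5.96 FPKM in the vehicle mice. The lowest values came from rFGF4 mouse 1 and vehicle mouse 5, the libraries at 1 end of the first principal component. The log2 fold change of Sirt3 was -0.19 ± 0.30 (SE; 95% interval -0.88 to 0.51; adjusted p = 0.949 with limma; exact permutation p = 0.686). Without rFGF4 mouse 1 its sign turned, to 0.11, and without both of these libraries it was -0.01.

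Sirt4, a mitochondrial sirtuin known as an ADP-ribosyltransferase and lipoamidase that restrains glutamate dehydrogenase and pyruvate dehydrogenase, stood at 4.68, 5.27, 4.74 and 5.21 FPKM in the rFGF4 mice. In the vehicle mice it stood at 5.57, 6.40, 5.004 and 5.67 FPKM. Vehicle mouse 4 was the only vehicle mouse below the highest treated values. Between the groups Sirt4 had a log2 fold change of -0.15 ± 0.11 (SE; 95% interval -0.41 to 0.10; adjusted p = 0.920 with limma; exact permutation p = 0.0857). Its residual SD was low, above that of 4.17% of tested genes, so the interval was the narrowest of the family.

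Sirt5, which removes succinyl, malonyl and glutaryl groups in mitochondria, stood at 1.76, 1.54, 1.64 and 1.84 FPKM in the rFGF4 mice. The vehicle mice had 2.77, 1.93, 2.10 and 1.81 FPKM of Sirt5. Only vehicle mouse 5 lay within the treated range, and vehicle mouse 2 lay highest of all. The log2 fold change of Sirt5 was -0.22 ± 0.13 (SE; 95% interval -0.51 to 0.08; adjusted p = 0.918 with limma), and the exact permutation p of 0.0571 was the smallest of the family. With rFGF4 mouse 1 and vehicle mouse 5 both left out, the log2 fold changes were 0.14 for Sirt1, -0.042 for Sirt2, -0.0064 for Sirt3, -0.13 for Sirt4, -0.28 for Sirt5, 0.13 for Sirt6 and 0.096 for Sirt7. Over the 7 genes, 4 differences were positive and 3 negative, or 2 and 5 with a common median ratio. The 3 negative ones on unscaled FPKM belonged to the mitochondrial members, whose direction relative to the other 4 was not tested.

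**Figure D2:**
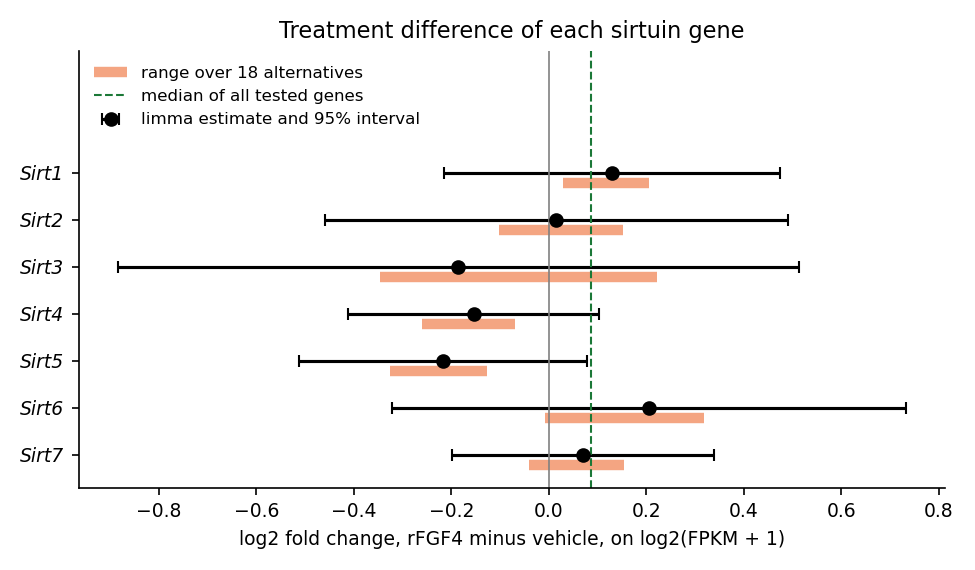
Log2 fold change of each sirtuin gene, rFGF4 minus vehicle, on log2(FPKM + 1) (horizontal axis); black points and bars are the limma estimate with its 95% interval, pale bars the range over 18 alternatives, of which 2 use a smaller pseudocount, and the dashed line the median of all tested genes, 0.09. All 7 intervals include 0, and the pale bars of Sirt2, Sirt3, Sirt6 and Sirt7 reach both sides of 0.

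Some sirtuin exons overlap those of other genes, and whether fragments were counted by strand is not given in the sources used here. In GENCODE M21 on GRCm38, Sirt3 lies on chromosome 7 from 140863666 to 140882309, minus strand. Of its 5973 exon bases it shares 418 with Ric8a and 342 with Psmd13, both on the opposite strand. Ric8a was at 3.66 to 10.2 FPKM and Psmd13 at 15.9 to 23.3 FPKM, so part of the Sirt3 value could come from these genes or go to them. Sirt7, on chromosome 11 from 120618372 to 120625240, minus strand, shares 124 exon bases with Mafg and 54 with Mir6936, both on the same strand. Mafg was at 13.5 to 26.5 FPKM and Mir6936 at 0.13 to 0.17 FPKM. Part of the Sirt7 value could come from these genes or go to them, and counting by strand would not separate them. Sirt2, on chromosome 7 from 28766735 to 28788661, plus strand, shares 42 with Nfkbib. Sirt1, on chromosome 10 from 63319005 to 63381704, minus strand, shares 65 with the antisense gene Gm16145, which was listed at the floor of 0.0001 in every library. Sirt4, on chromosome 5 from 115478010 to 115484725, minus strand, had no exon overlap. The same held for Sirt5, on chromosome 13 from 43365496 to 43395203, plus strand, and for Sirt6, on chromosome 10 from 81621785 to 81627797, minus strand.

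How the sirtuins varied with each other depended on the scaling. Of the 21 pairs of members, Pearson's r of log2(FPKM + 1) over the 8 libraries was positive for 7 and negative for 14 on unscaled FPKM, and it ranged from -0.90 to 0.62. With a common median ratio it was positive for 13 and negative for 8. All 10 pairs among Sirt2, Sirt3, Sirt4, Sirt5 and Sirt7 were then positive, from 0.31 to 0.77, against 4 of 10 on unscaled FPKM. This set, which leaves out Sirt1 and Sirt6, was picked from these same values and is a description with no test. Dividing all genes of a library by 1 factor also moves them together. By exact permutation tests 1 pair had an unadjusted p under 0.05 and 0 pairs an adjusted one. That pair was Sirt3 and Sirt6, with r = -0.903 (exact permutation p = 0.00541, adjusted over the 21 pairs 0.114) and Spearman's rho = -0.810 (exact permutation p = 0.0218, adjusted 0.457). Without rFGF4 mouse 1 and vehicle mouse 5, the libraries farthest from the median of Sirt3, r was -0.325 over a narrower range of Sirt3 (exact permutation p = 0.621), which leaves the relation unresolved in those 6 libraries. Dropping rFGF4 mouse 1 alone gave -0.680, and dropping vehicle mouse 5 alone gave -0.898. Without vehicle mouse 2 it was -0.988, and the adjusted exact permutation p was 0.0167. With a common median ratio 7 pairs had an unadjusted p under 0.05 and 0 an adjusted one. The smallest adjusted exact permutation p was then 0.140.

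**Figure D3:**
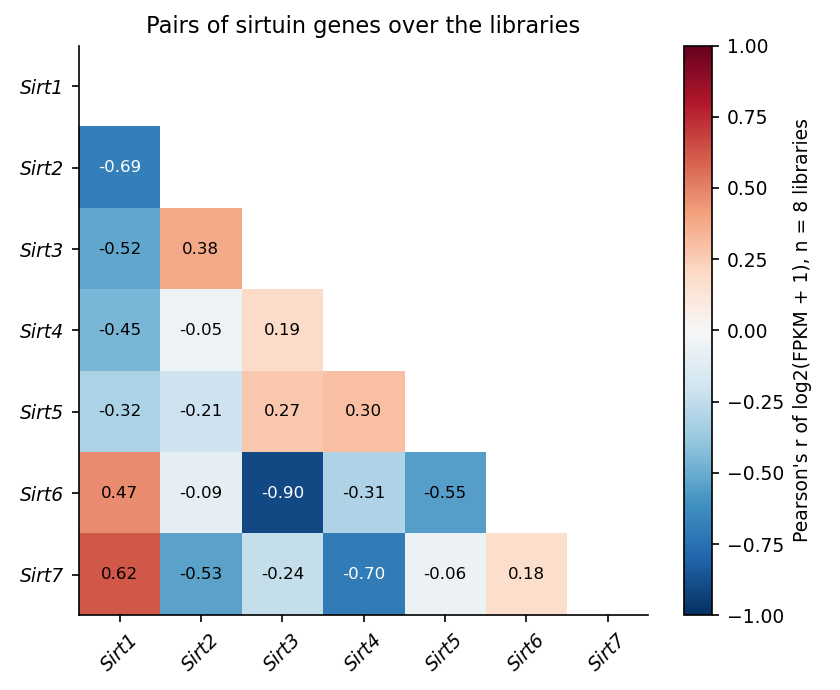
Pearson's r of log2(FPKM + 1) for each of the 21 pairs of sirtuin genes over the 8 libraries, printed in each cell and coloured from -1 (blue) to 1 (red). The darkest cell is Sirt3 with Sirt6, at -0.90, and 14 of the 21 values are negative on this unscaled FPKM, against 8 with a common median ratio.

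Sirt3 and Sirt6 went in opposite directions with the content of proximal tubule transcripts. The summed FPKM of Lrp2, Cubn, Slc34a1, Slc5a2, Slc22a6 and Aqp1, which encode uptake receptors and transporters of that segment, was taken on the log2 scale and chosen for this after the values were seen. Each member was set against 4 library measures, 28 relations in all. Apart from Sirt3 and Sirt6, no member had an adjusted exact permutation p under 0.05. The smallest of theirs, for Sirt5 with the mitochondrial share of FPKM, was 0.169 by Pearson's r and 0.0869 by Spearman's rho. How many of all tested genes reach such values was not counted. The relations below are therefore not shown to be particular to Sirt3 and Sirt6. Sirt3 was higher where the proximal tubule sum was higher, with r = 0.981 (exact permutation p = 0.000322, adjusted 0.00324) and rho = 0.905 (exact permutation p = 0.00456, adjusted 0.0256). Without the libraries farthest from the median of that sum, rFGF4 mouse 1 and vehicle mouse 4, r was 0.885 (exact permutation p = 0.0167). Sirt6 was lower where that sum was higher, with r = -0.928 (exact permutation p = 0.000868, adjusted 0.00486) and rho = -0.929 (exact permutation p = 0.00223, adjusted 0.0256). Without the same libraries r was -0.832 (exact permutation p = 0.00139). Without rFGF4 mouse 1 and vehicle mouse 5 instead, r was 0.910 for Sirt3 (exact permutation p = 0.0361) and -0.644 for Sirt6 (exact permutation p = 0.154). With a common median ratio, r was 0.987 for Sirt3 and -0.837 for Sirt6 (exact permutation p = 9.92e-05 and 0.0105).

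Macrophage transcripts, from Adgre1, Cd68, Csf1r and C1qa, ran the other way. Against their sum Sirt3 had r = -0.848 (exact permutation p = 0.00126, adjusted 0.00590) and rho = -0.905, and Sirt6 had r = 0.847 (exact permutation p = 0.00154, adjusted 0.00615) and rho = 0.881. Without rFGF4 mouse 1 and vehicle mouse 5 these were -0.855 (exact permutation p = 0.0375) for Sirt3 and 0.675 (exact permutation p = 0.126) for Sirt6. The sums of B and plasma cell markers, given above, were also highest in those libraries. For the mitochondrial share of FPKM, r was 0.851 for Sirt3 (exact permutation p = 0.00370, adjusted 0.0129, rho = 0.810) and -0.878 for Sirt6 (exact permutation p = 0.000570, adjusted 0.00399, rho = -0.905). Without the same libraries these were 0.607 (exact permutation p = 0.208) and -0.654 (exact permutation p = 0.151). For the first principal component, r was 0.882 for Sirt3 (exact permutation p = 0.000347, adjusted 0.00324, rho = 0.857) and -0.887 for Sirt6 (exact permutation p = 0.000248, adjusted 0.00324, rho = -0.952). Without the same libraries these became 0.817 (exact permutation p = 0.0486) and -0.704 (exact permutation p = 0.0861). With 6 libraries left, a p over 0.05 does not show that a relation rested on the libraries left out. In bulk tissue, fewer cells of a type and less RNA per cell cannot be told apart. All values of a library share its FPKM total, and the part of tissue content in the levels of Sirt3 and Sirt6 was not tested.

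**Figure D4:**
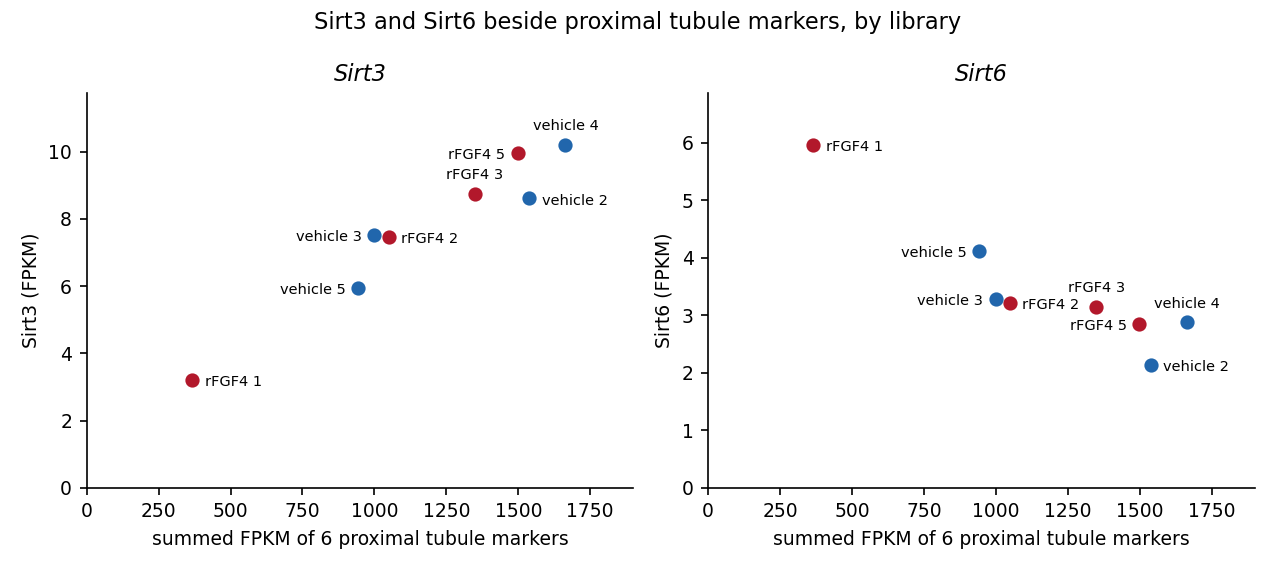
FPKM of Sirt3 (left) and Sirt6 (right) against the summed FPKM of 6 proximal tubule markers, with linear axes from 0; each point is 1 library, red for rFGF4 and blue for vehicle, labelled with its mouse number. Sirt3 runs from 3.21 FPKM at a sum of 366 to 10.2 FPKM at 1664, and Sirt6 from 5.96 FPKM at a sum of 366 to 2.13 FPKM near the upper end.

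The genes most like each sirtuin were taken from 11679 genes with a mean of at least 1 FPKM, by Pearson's r over the 8 libraries. As the highest of many values they are a description, with no test. For Sirt3 these were Cyc1, a subunit of complex III of the respiratory chain (r = 0.993), and Phyh, a peroxisomal enzyme of branched fatty acid breakdown (r = 0.993). Cyc1 lay between 82.2 and 152 FPKM and Phyh between 120 and 298 FPKM. For Sirt6 they were Ccdc71 (r = 0.995) and the phospholipase C gene Plcb3 (r = 0.994). Those of Sirt1 were Rtca, an RNA 3′-phosphate cyclase (r = 0.974), and Ppt1, a lysosomal thioesterase (r = 0.972). Those of Sirt4 were the kinase gene Mapk15 (r = 0.952) and the smooth muscle myosin Myh11 (r = 0.948). Those of Sirt5 were the mevalonate kinase Mvk (r = 0.958) and Adamts15, an extracellular protease (r = 0.915). Sirt7 ran most like Galnt1, which starts mucin-type glycosylation (r = 0.972), and Mfsd14a (r = 0.969). Sirt2 ran most like Mir7051 (r = 0.927) and the monocarboxylate transporter family gene Slc16a13 (r = 0.913).

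Sirtuins depend on NAD+ made by other enzymes, compete for it with PARPs and CD38, are subject to regulators and act on known substrates. Such genes, and for comparison the zinc-dependent histone deacetylases, were followed in 6 lists of 82 genes, of which 74 passed the filter on low values. An unadjusted p under 0.05 was reached by 2 of the 74, both higher with rFGF4, against 3.56% of all tested genes higher and 1.06% lower at that p. By limma 0 of the 74 had an adjusted p under 0.05. The median log2 fold change of the 74 genes was 0.09, as was that of all tested genes. Both genes past that p were in the list of nuclear and cytosolic substrates, where 18 of 18 were tested. There 15 differences were positive and 3 negative, beside 67.1% positive over all tested genes, and the median was 0.24. For several genes of this list rFGF4 mouse 1 was the highest library, and the list median without that mouse was not computed. For Foxo3 and Ppara, leaving it out gave 0.50 and 1.58.

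Foxo3, a transcription factor of stress resistance that SIRT1 deacetylates, stood at 13.0, 15.5, 18.8 and 12.9 FPKM in the rFGF4 mice and at 10.8, 10.4, 9.42 and 12.3 FPKM in the vehicle mice. Every treated value was above every vehicle value, with rFGF4 mouse 3 highest. Foxo3 had a log2 fold change of 0.44 ± 0.15 (SE; unadjusted p = 0.0164, adjusted p = 0.918 with limma), and the exact permutation p was 0.0286, the smallest that the design allows. It fell short of the 1.5-fold threshold. An unadjusted p under 0.05 was kept in 16 of 18 alternatives, and with a common median ratio the difference was 0.32 (limma, unadjusted p = 0.108).

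Ppara, the fatty acid receptor that drives genes of fat oxidation, stood at 3.27, 7.86, 15.6 and 6.88 FPKM in the rFGF4 mice and at 3.26, 0.99, 4.63 and 2.19 FPKM in the vehicle mice. The groups overlapped through rFGF4 mouse 1, which lay below vehicle mouse 4. Ppara had a log2 fold change of 1.26 ± 0.45 (SE; unadjusted p = 0.0220, adjusted p = 0.918 with limma; exact permutation p = 0.0571), past the study's threshold. With a common median ratio it was 1.16 (limma, unadjusted p = 0.0532), and an unadjusted p under 0.05 was kept in 14 of 17 alternatives.

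Of the NAD+ biosynthesis genes 15 of 19 were tested and 0 passed an unadjusted p of 0.05, with a median of 0.02. The smallest p in that list belonged to Naprt, which makes NAD+ from nicotinic acid, at 11.04 ± 1.87 FPKM with rFGF4 and 12.8 ± 1.60 FPKM with vehicle (SD, n = 4; log2 fold change -0.20 ± 0.15, SE). It was followed by the mitochondrial adenylyltransferase Nmnat3 (0.23 ± 0.22), Kynu of the kynurenine route (-0.28 ± 0.29) and the NAD+ synthetase Nadsyn1 (0.13 ± 0.14). Nmnat3 was at 6.33 FPKM in rFGF4 mouse 1, at 2.86 to 2.89 FPKM in the other treated mice and at 2.64 to 3.19 FPKM in the vehicle mice, and without that mouse its difference was -0.0035. Without the same mouse Kynu had -0.038, Naprt -0.13 and Nadsyn1 0.22. Nmnat2, Nmrk2, Tdo2 and Ido1 were under the filter, at 0.27 FPKM or less in every library. Of the genes that consume NAD+ or clear nicotinamide 10 of 12 were tested and 0 passed, with a median of 0.09. The closest were the tankyrases Tnks2 (log2 fold change 0.32 ± 0.16, SE) and Tnks (0.14 ± 0.12), the nicotinamide methyltransferase Nnmt (0.41 ± 0.42) and the DNA damage sensor Parp1 (0.15 ± 0.16). Leaving out rFGF4 mouse 1 gave 0.23, 0.081, 0.017 and 0.045. Tnks2 passed an unadjusted p of 0.05 by limma in 4 of 18 alternatives. Sarm1 and Aox1 were under the filter.

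All 6 SIRT1 regulators were tested and 0 passed, with a median of 0.18. They included the SUMO protease Senp1 (log2 fold change 0.25 ± 0.22, SE), the deubiquitinase Usp22 (0.30 ± 0.27), the repressor Hic1 (0.25 ± 0.41) and the RNA-binding protein gene Elavl1 (0.10 ± 0.38). With rFGF4 mouse 1 left out these were 0.13, 0.025, -0.073 and -0.090. Of the mitochondrial substrates 15 of 16 were tested, all but Cps1, and 0 passed, with a median of 0.06. Glud1, the glutamate dehydrogenase restrained by SIRT4, had a log2 fold change of 0.31 ± 0.16 (SE). Sod2, the mitochondrial superoxide dismutase, had -0.27 ± 0.21, and the complex I gene Ndufa9 had -0.22 ± 0.18. In the absence of rFGF4 mouse 1, Glud1 had 0.40, Sod2 -0.079 and Ndufa9 -0.060, and Glud1 then passed an unadjusted p of 0.05 by limma, as it did in 5 of 18 alternatives. Of the zinc-dependent histone deacetylases, which need no NAD+, 10 of 11 were tested, all but Hdac9, and 0 passed, with a median of 0.10. The 4 with the smallest p were Hdac3 (0.13 ± 0.13), Hdac2 (0.13 ± 0.14), Hdac10 (-0.14 ± 0.16) and Hdac11 (-0.23 ± 0.27). They had 0.070, 0.013, -0.21 and -0.22 without rFGF4 mouse 1.

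**Figure D5:**
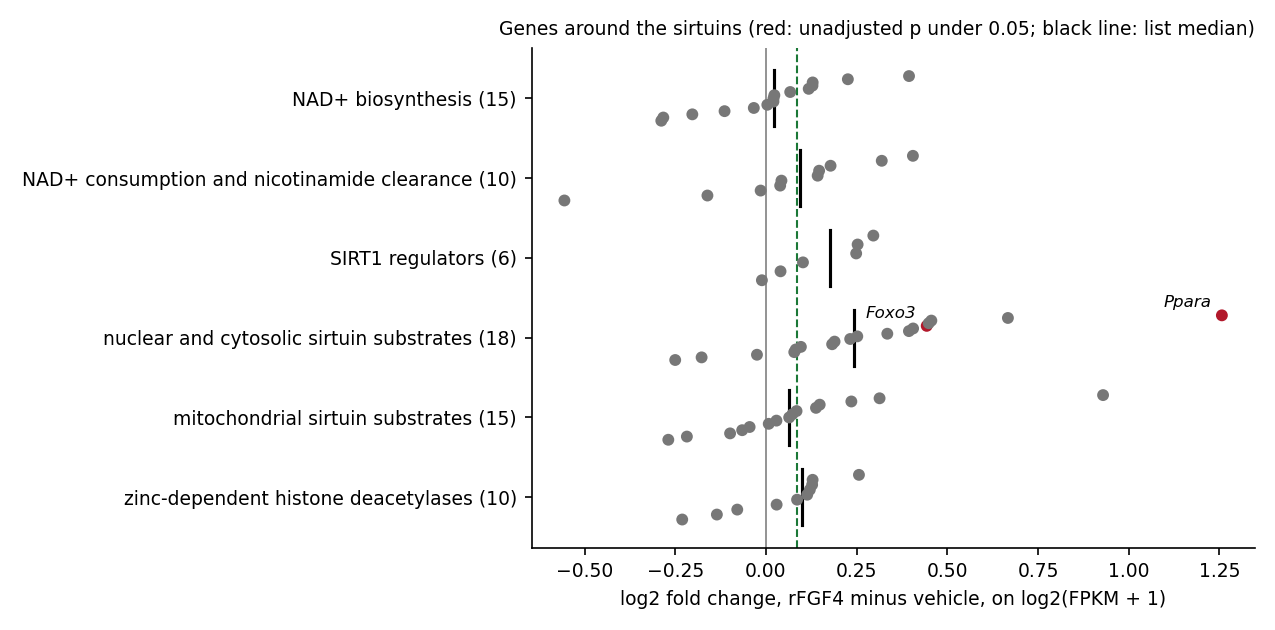
Log2 fold change, rFGF4 minus vehicle, on log2(FPKM + 1) for the 74 tested genes of 6 lists (number tested in brackets); each point is a gene, black lines are list medians, the dashed line is the median of all tested genes, 0.09, and red points have an unadjusted p under 0.05. The red points are Foxo3 at 0.44 and Ppara at 1.26.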

How the data were processed

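The authors sequenced poly(A) RNA of 8 mouse kidneys as paired ends, assembled the transcripts of each library in StringTie, combined the libraries by means of gffcompare and deposited FPKM per gene. The submitters' processing notes also name Bowtie 0.12.2, HISAT2 2.0, StringTie 1.3.0 and the build mm8. Since 99.5% of the gene identifiers were found in GENCODE M21, positions are from there on GRCm38. Other columns deposited by the authors hold a fold change as a ratio, its log2, a p-value and a q-value from their edgeR comparison, and were not used. A value of 0.0001 was read as 0, from its frequency.

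Groups were taken from the sample labels. Genes of at least 0.5 FPKM in 4 or more libraries were compared on log2(FPKM + 1) in limma 3.58.1 (R 4.3.3), using a variance trend and Benjamini-Hochberg adjustment. The procedure was tested on simulated data. Exact permutation tests used scipy 1.17.1 in Python 3.11.15, and figures matplotlib 3.10.9. The text names all sirtuins, of each list the genes with an unadjusted p under 0.05 or else the 4 with the smallest p, and for each sirtuin the 2 most similar genes. Genes without a proper symbol were left out of the latter. The result of 1 list gene that this rule names is not reported here. The sirtuins, lists, markers and motifs were chosen with earlier results of these data known. Other marker lists served to check the tissue, and some had unlike median sums with rFGF4 and with vehicle. These were 108 and 27.4 FPKM for immediate early genes and 331 and 219 FPKM for liver genes. For red blood cell genes they were 996 and 3247 FPKM. The ranges of the groups overlapped for each of these lists, and their part in the treatment differences was not tested. Without counts, no count test was possible and depth and counting error are unknown. The p-values measure the spread between these mice. Samples that share a mouse number were not treated as pairs. Alternatives were another pseudocount, filter, fold change, scaling or variance model, a block for the mouse number, and each mouse left out in turn. Leaving out rFGF4 mouse 1 and vehicle mouse 5 together, counting pairs without Sirt1 and Sirt6, and rescaling the proximal tubule relation were added after seeing the data.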

Additional observations from a re-analysis of the deposited data

Results flagged for a closer look

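Within a group of 4 mice, a value was marked where its gap to the nearest other value, divided by the range of the group on log2(FPKM + 1), exceeded Dixon's 95% limit for 4 values. Of 58 groups examined, 3 were marked, and chance marks about 1 in 20. All 3 were the highest value of rFGF4 mouse 1, the library with the smallest sum of proximal tubule markers, and the part of tissue content was not tested. Sirt6 had a gap share of 0.850, with 5.96 FPKM against 2.86 to 3.21 FPKM in the other treated mice. Nmnat3, an NAD+-making enzyme, had 0.988, with 6.33 FPKM against 2.86 to 2.89 FPKM. Hdac10, a zinc-dependent deacetylase, had 0.883, with 3.99 FPKM against 3.05 to 3.15 FPKM.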

How the results depend on the processing

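The number of sirtuin genes past the study's threshold was 0 in all 19 alternatives. Sirt1, Sirt4 and Sirt5 kept their direction in 18 of 18 alternatives. Sirt5 reached an unadjusted p under 0.05 with array weights alone, at a log2 fold change of -0.30, and its limma adjusted p was 0.395 or more in every alternative. Sirt2 turned sign with a common median ratio (-0.10), array weights (-0.035) and both end libraries of the first principal component left out (-0.042). It also did so when rFGF4 mouse 3 (-0.086) or 5 (-0.012) was dropped, or vehicle mouse 2 (-0.099) or 5 (-0.082). Sirt7 turned with a common median ratio (-0.040) and without vehicle mouse 3 (-0.0056). With 1 mouse left out the log2 fold changes ran from 0.050 to 0.20 for Sirt1, lowest without vehicle mouse 3, from -0.20 to -0.10 for Sirt4, closest to 0 without that mouse too, and from -0.27 to -0.13 for Sirt5, closest to 0 without vehicle mouse 2. They ran from -0.10 to 0.13 for Sirt2, from -0.35 to 0.11 for Sirt3, highest without rFGF4 mouse 1, from 0.01 to 0.32 for Sirt6, lowest without rFGF4 mouse 1, and from -0.01 to 0.11 for Sirt7. A replicate block on the mouse number turned Sirt3 to 0.22 and Sirt6 to -0.0082, and 7 list genes then had an unadjusted p under 0.05. Deviations of mice with the same number correlated at -0.23, -0.16 and -0.39. These gave no sign that the numbers pair the samples, but so few values cannot exclude it. The number of all genes past the threshold, 232, was 54 at a 2-fold change, 496 with array weights and 188 to 580 with 1 mouse left out, with 580 without rFGF4 mouse 5 and 434 without vehicle mouse 5. The 2 list genes with an unadjusted p under 0.05 became 1 with a filter of 1 FPKM in all libraries, 0 with a common median ratio, 6 when rescaled without mitochondrial genes, 7 with array weights, 4 without both end libraries, and 1 to 6 with 1 mouse left out (6 without rFGF4 mouse 1). Pairs of sirtuins with an unadjusted p under 0.05 numbered 7 with a common median ratio, 3 without mitochondrial genes and 0 to 3 with 1 mouse left out (0 without rFGF4 mouse 1, 3 without rFGF4 mouse 3), and only without vehicle mouse 2 did 1 pair, Sirt3 and Sirt6, pass adjustment. The cause of these shifts was not tested. Without counts, the depth behind a level is unknown, and with 4 mice a group changes inside a gene's 95% interval were not resolved.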
